A study of Homo sapiens with 6 samples.

Results

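The semaphorins, plexins, neuropilins, Robo receptors and Slit ligands are the genes described here, taken by symbol from a table of gene counts. The symbols SEMA3 to SEMA7, PLXNA to PLXND, NRP1 and NRP2, ROBO1 to ROBO4 and SLIT1 to SLIT3 matched 38 of the table's 61228 gene names, made up of 20 semaphorins, 9 plexins, 2 neuropilins, 4 Robo genes and 3 Slit genes. The counts come from poly(A)-selected RNA of MDA-MB-231 cells, an established human breast cancer line with mesenchymal features, grown inside gels of collagen I. The control group (3 libraries) had been nucleofected, that is loaded by an electric pulse, with the Cas9 nuclease and control guide RNAs. The other group (3 libraries, KO) had received Cas9 with guides against ETV1, ETV4 and ETV5, related ETS transcription factors; its treatment label names all of these genes, its sample titles ETV4 alone. Cas9 nucleofection and collagen culture were common to both groups. The KO library names share a tag, c39, that the labels leave unexplained, so a property of a single clone and an effect of the knockout cannot be told apart. The labels do not say that replicates came from separate cultures, so p-values measure the spread between these libraries, which may be technical.

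Semaphorins are secreted or membrane-bound guidance proteins that attract or repel growing axons and also act on endothelial, immune and tumour cells. Plexins are their main receptors, and neuropilins are co-receptors that most secreted class 3 semaphorins need and that also bind vascular endothelial growth factors. Slit proteins are secreted repellents whose receptors belong to the Robo family, though not every Robo member is an established Slit receptor. In breast tissue both systems are known from duct development and from the movement of tumour cells.

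Libraries held between 18042601 and 23232770 counts. ETV1 fell from 223 ± 13.4 to 142 ± 11 CPM (counts scaled to the library total; SD, n = 3) and ETV4 from 93.9 ± 2.11 to 63.7 ± 2.02 CPM (edgeR adjusted p = 0.0012 and 6.05e-04), while ETV5 measured 112 ± 4.76 and 113 ± 1.2 CPM (edgeR adjusted p = 0.934). KO therefore means the libraries so labelled: the ETV5 transcript was not lower in them, and gene counts do not show edits. Over all 14922 tested genes, 951 fell and 484 rose in KO at an edgeR quasi-likelihood adjusted p below 0.05; 590 and 568 genes passed in either direction when control replicates 1 and 2 were left out in turn, 703 and 678 when KO replicates 1 and 2 were, 3716 without both replicate 3 libraries, and 4978 with the replicate number as a block. All 6 markers expected of the line were tested, at summed levels of 8830 to 11000 CPM in control and 7670 to 9310 CPM in KO. ESR1, PGR and CDH1, the markers of the line's low or absent set that did not reach the filter, had at most 5 counts in any library, while EPCAM and GATA3 of that set were detected (27.5 to 31.5 CPM for the set in control, 30.6 to 34.9 CPM in KO). The replicate 3 libraries of both groups stood apart from replicates 1 and 2 in the same way: their deviations from the group means correlated at 0.828 over 10032 genes.

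Of the 38 genes, 32 had at least 10 counts in at least 3 libraries and were tested; 31 of these reached 10 counts in all 6 libraries. At the lower end of the tested genes, SEMA3G had 22, 10 and 28 counts in control and 11, 9 and 14 in KO. Just below the limit, SEMA6D had 8, 7 and 5 counts in control and 10, 5 and 9 in KO. SLIT1 did not exceed 4 counts in any library, SEMA5A did not exceed 2 and SEMA4A had 1 count in all. SEMA5B and SLIT3 were at 0 in every library, which allows up to 3 counts per library, or 0.128 to 0.165 CPM. These limits cover counting error only.

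Transcripts of 6 of 15 tested receptor genes and 4 of 16 tested semaphorins were lower in KO, while SLIT2 and SEMA7A were higher; the receptor genes NRP1, PLXNB2, PLXNA1 and ROBO1 were among those that did not pass. Of the 32 tested genes, 10 fell (SEMA3B, SEMA4B, SEMA4G, SEMA6B, PLXNA2, PLXNB3, PLXND1, ROBO2, ROBO3 and ROBO4), 2 rose (SLIT2 and SEMA7A) and 20 did not pass. The fallen genes are 31.2% of the tested members, against 6.37% of all tested genes. The risen genes are 2 of 32, against 3.24% of all tested genes. In either direction 12 of 32 passed, against 9.62%. The members were chosen with earlier results of these data known, so these shares are not a test of the group. A decrease of at least 2-fold was found for ROBO4 and SEMA4G, as for 1.21% of all tested genes. All 12 had at least 10 counts in every library. The median log2 change, the log2 fold change of KO over control, was -0.26 over the 32 genes and 0.003 over all genes. Of the 32 values 24 were below 0, as were 7369 of all 14922. The KO values lay below every control value for 13 of 32 members, as for 16.8% of all tested genes, and above every control value for 3, as for 14.7%. With the replicate number as a block, 15 members fell, as did 16.5% of all tested genes, and 3 rose, as did 16.8%. With any 1 library left out, 7 to 10 members fell, while 568 to 1739 of all tested genes passed in either direction. 1 member rose without control replicate 2 (SEMA7A no longer passed) and 3 rose without KO replicate 3 (SEMA3C added). With both replicate 3 libraries left out, all 12 passed in the same direction. In that fit 14 members fell and 3 rose, and 3716 of all 14376 tested genes passed in either direction. In bulk RNA, fewer cells of a type and less RNA per cell cannot be told apart.

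**Figure D1:**
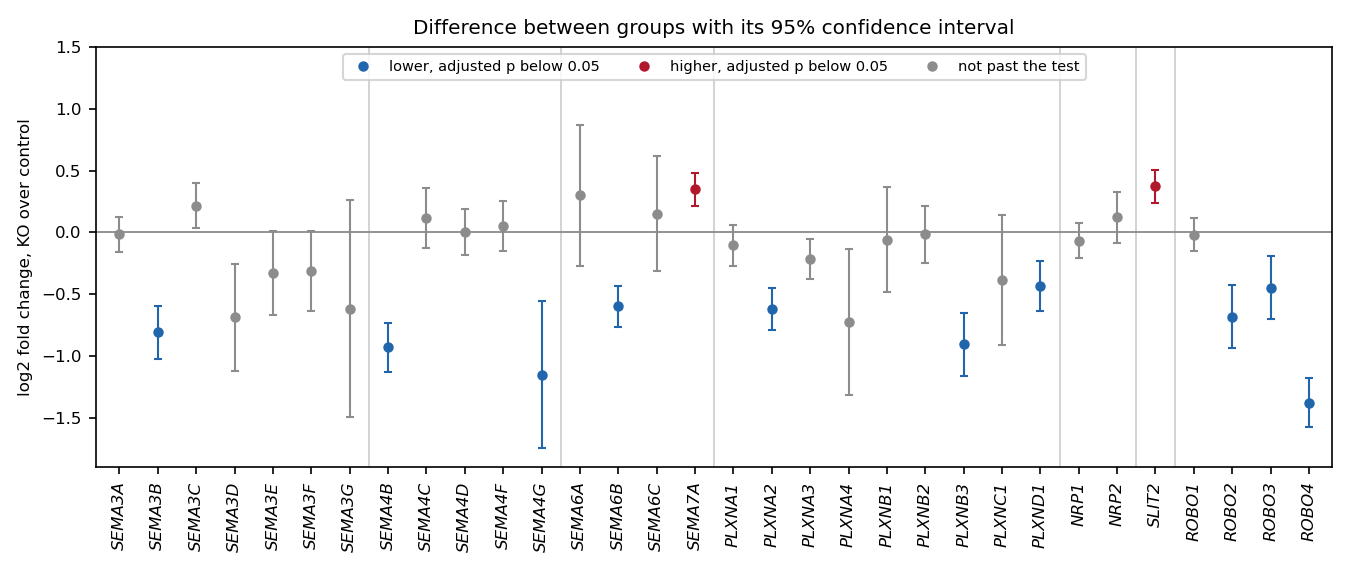
Log2 fold change of each of the 32 tested genes (vertical axis, KO over control; points) with its 95% confidence interval (bars), grouped from left to right into class 3, class 4 and class 5 to 7 semaphorins, plexins, neuropilins, SLIT2 and Robo receptors. Blue genes fell and red genes rose at an edgeR adjusted p below 0.05; ROBO4 lies lowest at -1.38 and SLIT2 highest at 0.37.

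Among the Robo receptors, ROBO2, ROBO3 and ROBO4 fell and ROBO1 did not pass. ROBO4, a family member best known from blood vessel endothelium, had the largest decrease of all tested members: 55.8, 53.6 and 49.5 CPM in control replicates 1 to 3 and 22.6, 19.1 and 19.3 CPM in KO replicates 1 to 3. All KO libraries thus lay well below the lowest control, replicate 3. The means were 53.0 ± 3.19 and 20.3 ± 1.96 CPM, a 2.60-fold decrease (log2 change -1.38, SE 0.09, edgeR adjusted p = 5.87e-05). ROBO2, a neuronal Slit receptor, measured 16.6, 16.9 and 14.8 CPM in control and 9.91, 11.2 and 8.97 CPM in KO, again without overlap (log2 change -0.68, SE 0.11, edgeR adjusted p = 0.00687). ROBO3, the divergent member known from axons that cross the midline, measured 24.1, 26.3 and 27.6 CPM in control and 19.8, 16.1 and 21.3 CPM in KO. Its groups did not overlap, but its decrease (log2 change -0.45, SE 0.11, edgeR adjusted p = 0.0397) passed in only 1 of the 6 fits with a library left out, the one without KO replicate 3; the largest adjusted p of these edgeR fits was 0.133, without control replicate 2. ROBO1, the broadly expressed Slit receptor, gave 58.1, 61.9 and 60.7 CPM in control and 58.9, 59.9 and 59.2 CPM in KO. The groups overlapped, and the 95% interval of its log2 change ran from -0.15 to 0.11 (edgeR adjusted p = 0.878).

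Levels of different genes were compared as CPM per kilobase of annotated exon, a length that may differ from that of the transcripts expressed. On this scale the summed Robo level was 17.7 ± 0.31 in control and 11.7 ± 0.44 in KO. ROBO4 gave the largest part of it in every control library, 40.4% to 44.8%, and 23.3% to 26.7% in KO. ROBO1 made up 30.2% to 32% of the sum in control and 45% to 49.2% in KO, while its own level was 5.54 ± 0.18 and 5.46 ± 0.05 CPM per kilobase. In KO, therefore, the most abundant Robo transcript was that of ROBO1 in each library. ROBO3 contributed 20.9% ± 1.61 in control and 23.2% ± 2.67 in KO, and ROBO2 5.44% ± 0.31 and 5.17% ± 0.74.

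SLIT2 (chromosome 4, 20253260 to 20620561, plus strand), the only Slit ligand that reached the filter, moved the other way. It measured 84.0, 82.8 and 78.3 CPM in control and 110, 104 and 103 CPM in KO, so that each KO library was above each control library. The increase was 1.29-fold (log2 change 0.37, SE 0.06, edgeR adjusted p = 0.00532) and passed in all 6 fits with a library left out, with edgeR adjusted p of at most 0.0337. Per length, SLIT2 went from 8.41 ± 0.31 to 10.9 ± 0.36 CPM per kilobase.

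**Figure D2:**
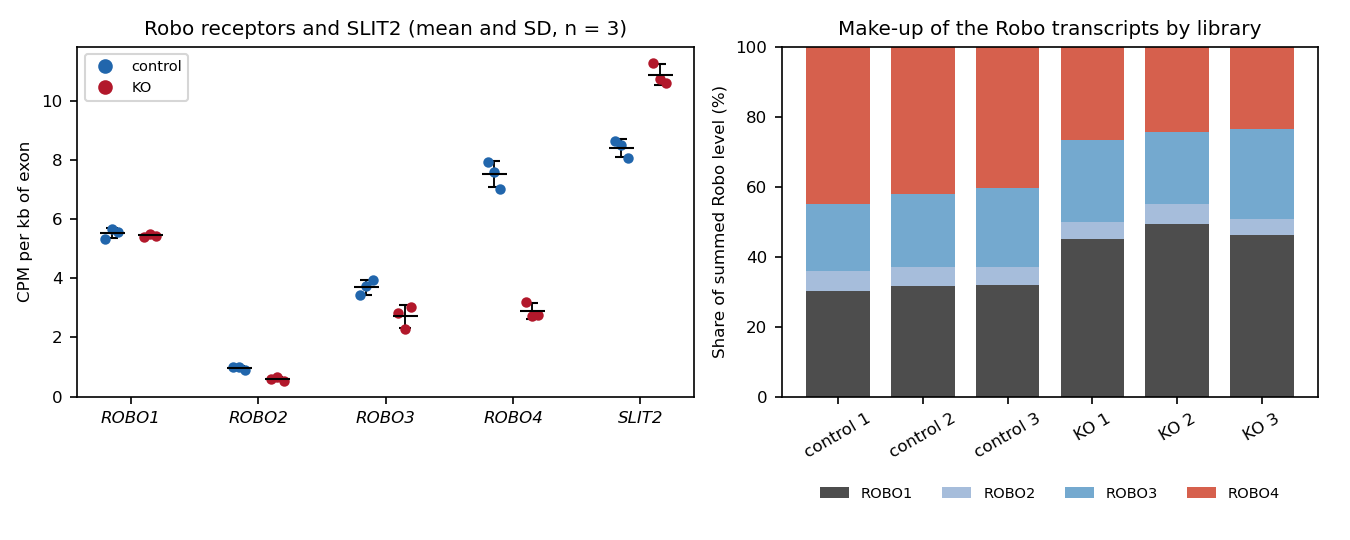
Left, level of ROBO1 to ROBO4 and SLIT2 in CPM per kilobase of exon for each of the 3 control (blue) and 3 KO (red) libraries, with mean and SD; right, share of each Robo gene in the summed Robo level of each library, in percent. ROBO4 holds 40.4% or more of the sum in control and 26.7% or less in KO, and SLIT2 lies higher in all KO libraries.

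The Robo genes sit in neighbouring pairs on GRCh38. ROBO3 (chromosome 11, 124865386 to 124881470, plus strand) and ROBO4 (124883691 to 124898500, minus strand) converge with 2220 bases between them, and both fell. ROBO2 (chromosome 3, 75906695 to 77649964, plus strand) and ROBO1 (78597240 to 79767815, minus strand) also converge, 947 kb apart, with log2 changes of -0.68 and -0.02. Exons of ROBO4 overlap those of antisense transcripts in the annotation, and whether counting used strand is not given in the sources used here, so reads of ROBO4 and its antisense partners cannot be told apart with certainty.

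Markers of other cell types were examined beside ROBO4, since it is an endothelial gene. Of 7 endothelial markers 3 were tested (PECAM1, KDR and TIE1), CDH5 and CLDN5 were at 0 in every library, and VWF and TEK had at most 4 counts in any library. The summed level of the list ran from 17.3 to 18.9 CPM in control and from 10.5 to 13.8 CPM in KO. PECAM1, an endothelial and leukocyte adhesion molecule, went from 6.76 ± 0.63 to 3.74 ± 0.95 CPM (log2 change -0.85, SE 0.19, edgeR adjusted p = 0.0249) and the receptor tyrosine kinase gene TIE1 from 7.47 ± 0.43 to 5.02 ± 0.41 CPM (log2 change -0.57, SE 0.13, edgeR adjusted p = 0.0243). KDR, a receptor of vascular endothelial growth factors, stood at 3.68 ± 0.17 and 3.27 ± 0.50 CPM with overlap between the groups (log2 change -0.17, SE 0.17, edgeR adjusted p = 0.60). ROBO4 at 53.0 CPM in control exceeded the sum of the whole endothelial list. Of 6 neuronal markers 2 were tested, with RBFOX3, SNAP25 and STMN2 at 0, and the list summed to 5.5 to 7.44 CPM in control and 4.5 to 4.99 CPM in KO. Of 6 fibroblast markers 2 were tested (PDGFRB and COL1A1), with list sums of 13.2 to 13.3 and 11.8 to 13.8 CPM. No fibroblast marker was at 0 throughout, but DCN, FAP and PDGFRA had at most 2 counts in any library and LUM at most 10. SYT1 and PDGFRB were lower in KO without overlap but did not pass (edgeR adjusted p = 0.0653 and 0.068), while TUBB3 and COL1A1 overlapped. Of 6 blood markers 2 were tested, with CD3E among those at 0. The blood list summed to 6.66 to 8.03 CPM in control and 2.68 to 3.25 CPM in KO. The lysozyme gene LYZ, its most abundant marker, fell from 6.03 ± 0.25 to 1.55 ± 0.26 CPM (log2 change -1.96, SE 0.17, edgeR adjusted p = 3.28e-04). CD14 did not pass. The part of all these markers in the results was not tested.

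Among the plexins, PLXNA2, PLXNB3 and PLXND1 fell, none rose, and the other 6 did not pass. PLXNB3 (chromosome X, 153764196 to 153779346, plus strand), a receptor for SEMA5A, measured 47.6, 49.5 and 55.0 CPM in control and 28.0, 22.5 and 30.6 CPM in KO. Every KO value was below every control value, a 1.88-fold decrease (log2 change -0.91, SE 0.11, edgeR adjusted p = 0.00162). Its ligand SEMA5A was below the filter. PLXNA2 (chromosome 1, 208022242 to 208244320, minus strand), a receptor for class 3 and class 6 semaphorins, measured 61.3, 62.9 and 57.5 CPM in control and 42.6, 38.6 and 37.0 CPM in KO. These groups were also apart (log2 change -0.62, SE 0.08, edgeR adjusted p = 0.00144). PLXND1 (chromosome 3, 129555175 to 129606818, minus strand), the receptor of SEMA3E in blood vessels, measured 61.6, 62.4 and 50.8 CPM in control and 44.6, 43.0 and 41.8 CPM in KO. Control replicate 3 was the lowest control and still above all KO libraries. The log2 change was -0.43 (SE 0.09, edgeR adjusted p = 0.018); the decrease did not pass without control replicate 1, control replicate 2, KO replicate 1 or KO replicate 2 (edgeR adjusted p of up to 0.0829).

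The most abundant plexins were not among those that passed. PLXNB2, a receptor of class 4 semaphorins, measured 216, 219 and 180 CPM in control and 227, 198 and 182 CPM in KO. The groups overlapped almost fully, and the 95% interval of the log2 change ran from -0.25 to 0.22 (edgeR adjusted p = 0.94). PLXNA1, which pairs with neuropilins to receive class 3 semaphorins, measured 295, 295 and 260 CPM in control and 273, 269 and 249 CPM in KO. Here control replicate 3 lay among the KO values; the log2 change of -0.10 (SE 0.07) had edgeR adjusted p = 0.427, and 0.0146 with the replicate number as a block. PLXNA3, also an A-type plexin, stood at 68.8 ± 1.93 and 59.2 ± 4.66 CPM (log2 change -0.22, SE 0.07, edgeR adjusted p = 0.0987; with the replicate block, adjusted p = 9.90e-04). PLXNA4 was scarce at 2.30 ± 0.13 and 1.39 ± 0.42 CPM (log2 change -0.73, SE 0.26, edgeR adjusted p = 0.123; with the replicate block, adjusted p = 0.0239). PLXNB1, a receptor of SEMA4D, stood at 5.26 ± 0.88 and 5.06 ± 0.92 CPM, with an interval of -0.49 to 0.37. PLXNC1, a receptor of SEMA7A, stood at 3.46 ± 0.86 and 2.63 ± 0.38 CPM, with an interval of -0.91 to 0.14. All 9 plexins had a log2 change below 0, from -0.91 to -0.02, as had 7369 of all 14922 tested genes. Those of PLXNB1 and PLXNB2 changed sign in some fits with 1 library left out. The summed plexin level was 78.6 ± 5.21 and 69.0 ± 4.70 CPM per kilobase, with overlap between the groups. PLXNB2 made up 78.3% ± 3.27 of the summed B-type plexin level in control and 86.4% ± 2.51 in KO, and PLXNB3 20.2% ± 2.93 and 12% ± 2.24. PLXNB3 and PLXNA3 lie 679 kb apart on chromosome X. Exons of PLXNB3 overlap those of SRPK3 on the same strand over 1432 bases, and SRPK3 had 17 counts over all libraries against 4732 for PLXNB3. PLXNC1 shares 177 bases of exon with CEP83 on the opposite strand, which had 2081 counts against 363 for PLXNC1, so PLXNC1 values are uncertain.

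Neither neuropilin passed the test. NRP1, the co-receptor of SEMA3A and of vascular endothelial growth factors, was the most abundant member per length in control at 33.9 ± 1.01 CPM per kilobase. Its values were 391, 403 and 379 CPM in control and 380, 385 and 353.7 CPM in KO. Only KO replicate 3 lay below all controls, and the 95% interval of the log2 change ran from -0.21 to 0.07 (edgeR adjusted p = 0.56). NRP2, which prefers SEMA3F, stood at 18.9 ± 1.61 and 20.5 ± 0.70 CPM, with an interval of -0.09 to 0.33. NRP1 held 95.4% to 96.4% of the summed neuropilin level in all 6 libraries.

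Of the secreted class 3 semaphorins, SEMA3B fell and the other 6 did not pass. SEMA3B (chromosome 3, 50267558 to 50277546, plus strand), often described as a tumour suppressor, measured 102, 102 and 105 CPM in control and 62.0, 49.5 and 64.4 CPM in KO. The KO libraries were more spread than the controls but all far below them. The decrease was 1.75-fold (log2 change -0.81, SE 0.09, edgeR adjusted p = 0.00117) and passed with any 1 library left out. SEMA3A, the prototype repellent of sensory axons, gave 85.9, 84.8 and 83.9 CPM in control and 85.3, 87.8 and 78.3 CPM in KO, with overlap and an interval of -0.16 to 0.12. SEMA3C, known from heart outflow tract development, was the class 3 member whose KO values all exceeded the controls, at 53.6 ± 3.84 and 62.2 ± 4.21 CPM. Its log2 change of 0.22 (SE 0.08) had edgeR adjusted p = 0.128, 8.89e-04 with the replicate block and 0.0472 without KO replicate 3. SEMA3F, the neighbour of SEMA3B at 78.5 kb, stood at 17.5 ± 2.47 and 14.1 ± 2.13 CPM (log2 change -0.31, SE 0.14, edgeR adjusted p = 0.214; with the replicate block, adjusted p = 0.00441).

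The remaining class 3 genes were scarcer. SEMA3D measured 6.38, 5.98 and 4.17 CPM in control and 3.64, 3.17 and 3.41 CPM in KO, without overlap. Its log2 change of -0.69 (SE 0.19) missed the threshold at edgeR adjusted p = 0.0561 and passed with the replicate block (adjusted p = 0.00126), with DESeq2 (adjusted p = 0.0457), with no filter (edgeR adjusted p = 0.00884) and without control replicate 3 (edgeR adjusted p = 0.014). SEMA3E stood at 6.77 ± 0.91 and 5.37 ± 0.52 CPM, with an interval of -0.67 to 0.01, and SEMA3G at 0.92 ± 0.34 and 0.61 ± 0.15 CPM, with one of -1.50 to 0.26. As shares of the summed class 3 level, which was 40.7 ± 1.10 in control and 33.1 ± 0.95 CPM per kilobase in KO, SEMA3B held 43.8% ± 2.03 and then 30.7% ± 4.15, SEMA3C 21.0% ± 0.96 and 30.0% ± 2.16, and SEMA3A 22.2% ± 0.38 and 27.0% ± 1.48. SEMA3B was thus the leading class 3 transcript in every control library, while in KO SEMA3C led in replicate 2 and SEMA3B in replicates 1 and 3.

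**Figure D3:**
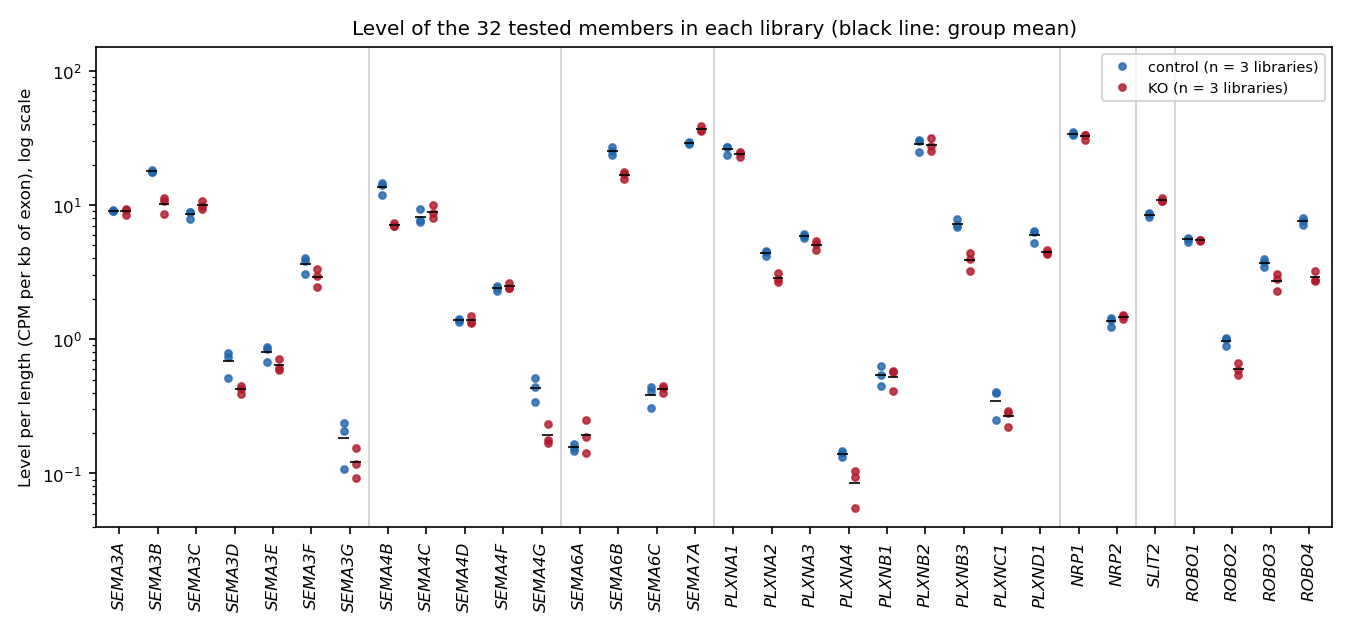
Level of the 32 tested genes in each library, in CPM per kilobase of exon on a log axis (points; blue for 3 control and red for 3 KO libraries; black lines are group means), grouped as in the plot of fold changes. Levels span from 0.14 CPM per kilobase for PLXNA4 to 33.9 for NRP1 in control.

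Membrane-bound semaphorins moved in both directions. SEMA4B (chromosome 15, 90160604 to 90229679, plus strand), a class 4 transmembrane semaphorin, measured 103, 99.0 and 82.7 CPM in control and 51.5, 48.4 and 49.1 CPM in KO. The KO libraries were close together and all below control replicate 3, the lowest control; the decrease was 1.91-fold (log2 change -0.93, SE 0.09, edgeR adjusted p = 3.83e-04). SEMA6B (chromosome 19, 4542593 to 4559808, minus strand), a transmembrane ligand of A-type plexins, measured 111, 104 and 119 CPM in control and 77.2, 68.2 and 74.9 CPM in KO, again without overlap (log2 change -0.60, SE 0.07, edgeR adjusted p = 0.00147). Both decreases passed with any 1 library left out.

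SEMA4G (chromosome 10, 100969518 to 100985871, plus strand) was scarce, with 1.80, 2.32 and 2.68 CPM in control and 1.23, 0.88 and 0.94 CPM in KO. Its groups did not overlap, and the log2 change was -1.15 (SE 0.26, edgeR adjusted p = 0.0265). The call was lost without control replicate 2, control replicate 3, KO replicate 1 or KO replicate 2 (edgeR adjusted p of up to 0.105). Its exons overlap those of MRPL43, a mitochondrial ribosomal protein gene on the opposite strand, over 1170 bases; MRPL43 had 5883 counts over all libraries against 201 for SEMA4G, so its values are uncertain. MRPL43 itself stood at 48.9 ± 4.19 and 49.9 ± 5.34 CPM.

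SEMA7A (chromosome 15, 74409289 to 74433958, minus strand), a lipid-anchored semaphorin that binds integrins and PLXNC1, rose. It measured 112, 108 and 111 CPM in control and 135, 138 and 148 CPM in KO, with all KO libraries above all controls. The increase was 1.27-fold (log2 change 0.35, SE 0.06, edgeR adjusted p = 0.00834) and did not pass without control replicate 2 (edgeR adjusted p = 0.0605). Per length, SEMA7A went from 29 ± 0.59 to 36.9 ± 1.81 CPM per kilobase and was the most abundant member in KO, ahead of NRP1 at 32.4 ± 1.46. In control its level, that of PLXNB2 (28.2 ± 3.01), PLXNA1 (25.9 ± 1.86) and SEMA6B (25.2 ± 1.70) followed NRP1 in this order, and each of these 4 lay within the summed SDs of its neighbour in that order.

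Other membrane-bound semaphorins did not pass. SEMA4C, a ligand of PLXNB2, stood at 50.4 ± 6.10 and 54.6 ± 6.21 CPM with an interval of -0.13 to 0.36, and SEMA4D, the ligand of PLXNB1, at 19.6 ± 0.49 and 19.6 ± 1.18 CPM with an interval of -0.19 to 0.18. SEMA4F measured 14.9 ± 0.63 and 15.4 ± 0.75 CPM, with an interval of -0.15 to 0.25. SEMA6A and SEMA6C were at about the level of SEMA4G, with 1.72 ± 0.11 and 2.11 ± 0.60 CPM for SEMA6A and 2.24 ± 0.40 and 2.47 ± 0.15 CPM for SEMA6C, and their intervals were wide (-0.27 to 0.87 and -0.32 to 0.62). The summed class 4 level was 25.9 ± 0.42 and 20.0 ± 1.16 CPM per kilobase. Within it SEMA4B held 52.1% ± 5.04 in control and 35.5% ± 1.88 in KO, and SEMA4C 31.6% ± 4.37 and 44.2% ± 2.66. In each KO library SEMA4C was the leading class 4 transcript, and in each control library SEMA4B was.

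**Figure D4:**
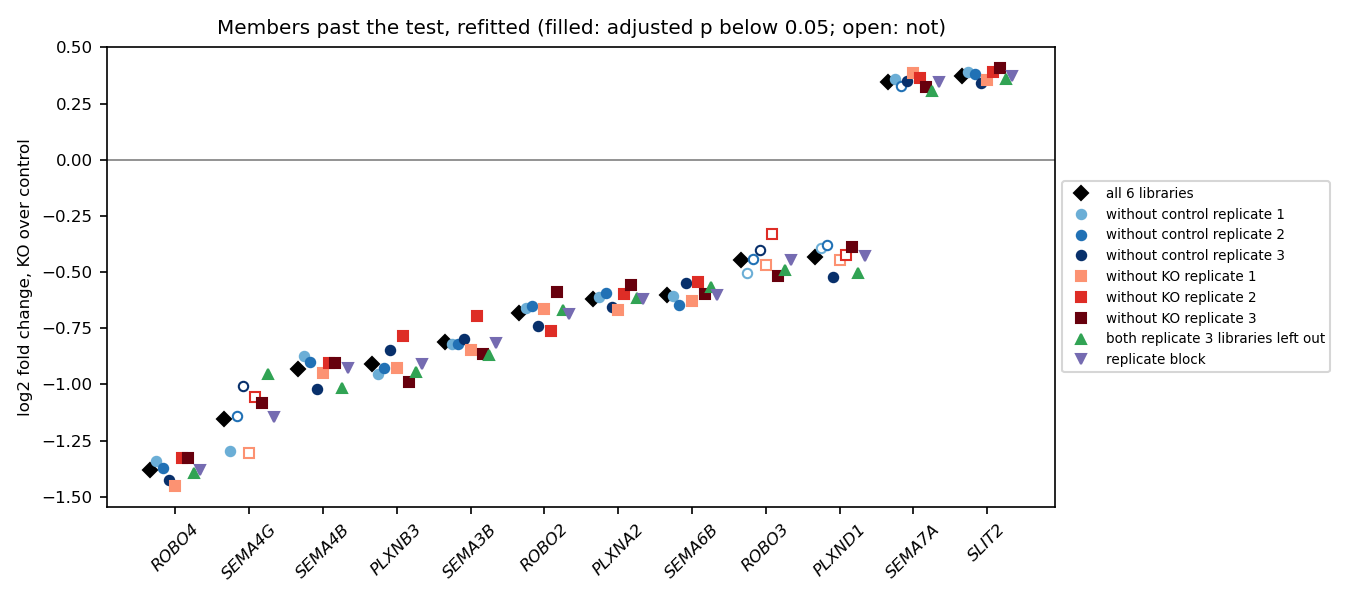
Log2 fold change (vertical axis, KO over control) of the 12 genes that passed the test, in the fit on all 6 libraries, with each library left out in turn, with both replicate 3 libraries left out and with the replicate block; filled symbols have an edgeR adjusted p below 0.05. SEMA4G, ROBO3, PLXND1 and SEMA7A have open symbols in 4, 5, 4 and 1 of the 6 fits with a library left out, and the other 8 genes in none.

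Upstream sequences are shown for PLXNA2 and PLXNB3, which fell, and for SLIT2 and SEMA7A, which rose, because the targeted factors bind DNA at sites with a GGAA core and these genes moved in opposite directions. Each is taken from the 250 bases before a start that RefSeq lists (GRCh38.p14), up to the first base that GENCODE places in an exon, 5′ to 3′ on the gene's strand. The stretches are chr1:208244385-208244634 (minus strand) for PLXNA2, chrX:153763999-153764195 (plus strand) for PLXNB3, chr4:20251655-20251904 (plus strand) for SLIT2 and chr15:74433959-74434208 (minus strand) for SEMA7A. For ROBO4 the first of the 250 bases already lies in such an exon, so none is shown. Capitals mark GGAA on either strand, which reads TTCC on the other.
PLXNA2: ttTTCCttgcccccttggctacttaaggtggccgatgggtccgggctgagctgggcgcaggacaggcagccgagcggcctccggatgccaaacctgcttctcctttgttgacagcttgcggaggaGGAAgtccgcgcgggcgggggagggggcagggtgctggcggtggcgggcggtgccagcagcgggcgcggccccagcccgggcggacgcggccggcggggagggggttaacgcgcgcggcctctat
PLXNB3: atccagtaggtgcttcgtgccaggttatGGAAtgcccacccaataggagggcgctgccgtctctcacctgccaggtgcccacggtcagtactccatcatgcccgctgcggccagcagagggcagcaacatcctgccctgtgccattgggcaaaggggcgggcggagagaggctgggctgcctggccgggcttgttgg
SLIT2: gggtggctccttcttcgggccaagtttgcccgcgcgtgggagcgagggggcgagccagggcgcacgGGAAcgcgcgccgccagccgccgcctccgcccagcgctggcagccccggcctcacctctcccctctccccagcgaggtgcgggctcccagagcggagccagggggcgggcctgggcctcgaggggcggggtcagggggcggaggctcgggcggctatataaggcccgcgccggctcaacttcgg
SEMA7A: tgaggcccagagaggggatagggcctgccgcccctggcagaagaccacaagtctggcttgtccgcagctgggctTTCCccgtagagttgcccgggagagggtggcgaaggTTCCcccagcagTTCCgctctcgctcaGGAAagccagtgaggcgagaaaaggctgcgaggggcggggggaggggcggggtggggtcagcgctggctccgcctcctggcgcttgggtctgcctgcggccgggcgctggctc
The stretches hold 2 such cores for PLXNA2, 1 for PLXNB3, 1 for SLIT2 and 4 for SEMA7A. Among fallen genes not shown, SEMA4B holds 5, 1 and 3 at its listed starts, SEMA4G 1 and 4, and PLXND1 0. Cores thus occur upstream of genes that fell and of genes that rose. The stretches differ in length, and their numbers of cores were not compared between fallen and risen genes. Gene counts do not show which start was used.

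RefSeq windows of 300 bases, from 250 before to 50 after a listed start, were found for 34 of the 38 members; NRP1, SEMA3A, SEMA6A and SEMA6B had none in the table. GGAA on either strand occurred in 95.5% of all 35116 windows and in all 19 windows of the fallen members. The longer letters CCGGAAGT or CAGGAAGT, which contain that core and resemble the preferred site of the ETS family, occurred in 7.02% of all windows, in 0 of the 19 windows of the 9 fallen members with an entry and in 1 of 24 windows of members that did not pass, belonging to SEMA3F. The letters ACGTG, the core bound by hypoxia-inducible factors, occurred in 21.4% of all windows. They were found in 7 of the 19 windows of fallen members (36.8%), 4 of these 7 being windows of SEMA3B and the others those of PLXNB3, ROBO2 and ROBO3. They were found in 3 of the 24 windows of members that did not pass (12.5%) and in 1 window of SEMA7A. Windows of a gene overlap or share sequence in part, as for SEMA3B with 5 listed starts, where the same ACGTG is counted in more than 1 window. By gene, ACGTG occurred in 4 of the 9 fallen members with an entry and in 3 of 17 that did not pass. A match does not show a bound site. The search took exact letters alone, so a window without them may still hold a similar site.

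Genes that work with these receptors and ligands were counted from 5 lists, also chosen with earlier results of these data known. Of 107 such genes, 80 were tested, 9 fell (11.2%, against 6.37% of all tested genes) and 1 rose (1 of 80, against 3.24%); the median log2 change was -0.05. 4 fell when control replicate 1, control replicate 2 and KO replicate 1 were each left out, 5 without KO replicate 2 and 6 without control replicate 3. 2 and 3 rose without control replicate 3 and KO replicate 3. With the replicate block 23 of 80 fell and 9 of 80 rose, against 16.5% and 16.8% of all tested genes in that fit. Without both replicate 3 libraries, 20 of 79 tested partner genes fell and 7 rose. In that fit 3716 of all 14376 tested genes passed in either direction. In the list of receptor partners and VEGF ligands, 3 of 14 tested genes fell. L1CAM, an adhesion molecule that joins NRP1 in the receptor for SEMA3A, went from 145, 141 and 122 CPM in control to 67.5, 62.2 and 56.0 CPM in KO, a clear separation (log2 change -1.13, SE 0.09, edgeR adjusted p = 1.98e-04). PGF, a placental growth factor of the VEGF family, fell from 10.6 ± 1.41 to 5.90 ± 0.54 CPM (log2 change -0.85, SE 0.14, edgeR adjusted p = 0.0062), and CSPG4, a membrane proteoglycan, from 14.2 ± 1.07 to 9.07 ± 0.71 CPM (log2 change -0.65, SE 0.11, edgeR adjusted p = 0.00721). None of the 14 rose.

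Of 29 tested genes that carry plexin and semaphorin signals, DPYSL2 and RRAS fell (6.9%, near the 6.37% of all tested genes) and none rose. DPYSL2, a collapsin response mediator protein downstream of SEMA3A, went from 164 ± 12.4 to 125 ± 13.2 CPM (log2 change -0.39, SE 0.09, edgeR adjusted p = 0.026). RRAS, a small GTPase on which plexins act, went from 32.5 ± 2.58 to 24.4 ± 1.51 CPM (log2 change -0.41, SE 0.09, edgeR adjusted p = 0.0189). Of 25 tested genes of Robo and Slit signalling 2 fell (8%, also near 6.37%) and none rose. The syndecan gene SDC3, a heparan sulfate proteoglycan, fell from 128 ± 5.39 to 90.8 ± 5.60 CPM (log2 change -0.50, SE 0.07, edgeR adjusted p = 0.00231) and SRGAP2, a Slit-Robo GTPase-activating protein, from 55.0 ± 1.45 to 46.9 ± 0.26 CPM (log2 change -0.23, SE 0.06, edgeR adjusted p = 0.0454). Of 7 tested proteases that cleave semaphorins or their receptors, MMP14 (log2 change -0.32, SE 0.07, edgeR adjusted p = 0.0233) and ADAM17 (-0.31, SE 0.06, edgeR adjusted p = 0.0162) fell. ADAMTS1 (0.52, SE 0.08, edgeR adjusted p = 0.00437) rose. The fallen genes are 28.6% and the risen gene 14.3% of these 7, against 6.37% and 3.24% of all tested genes. In the netrin system, a separate guidance pathway, 5 of 16 genes were tested and none passed in either direction. With the replicate block, 16.5% of all tested genes fell and 16.8% rose. In that fit 7 of the 29 plexin and semaphorin signalling genes fell and 4 rose. Of the 25 Robo and Slit signalling genes 6 fell and 4 rose. Of the 14 receptor partners and VEGF ligands 6 fell and none rose, and of the 7 proteases 3 fell and 1 rose. Of the 5 netrin genes NTNG2 alone fell (edgeR adjusted p = 7.87e-04) and none rose.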

How the data were processed

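RNA of 3 control and 3 KO libraries was made into stranded poly(A) libraries, per the labels' protocols. The deposited table holds raw read counts per gene name; per the submitters' processing notes tools named for the authors' work were STAR 2.7.9a, FastQC 0.11.9, R 4.1.1 and featureCounts, and the build was hg38. Annotation and strand setting were not given in the sources used here. Columns were matched to samples by library name, groups taken from the treatment label. No column belonged to another sample.

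Genes with 10 or more counts in at least 3 libraries (14922) were tested in 1 fit with edgeR 4.0.16 in R 4.3.3: TMM factors (0.988 to 1.01), glmQLFit with robust estimation, glmQLFTest, no covariate, p-values adjusted by Benjamini-Hochberg across the tested table, threshold 0.05. Adjusted p-values are edgeR's unless named otherwise. CPM are TMM-scaled; levels per kilobase use merged exon lengths of GENCODE 29 (GRCh38), not necessarily the gene models behind the counts. The procedure was tested on simulated data. Alternatives were edgeR's filterByExpr, no filter, RLE factors, library totals, DESeq2 1.42.0, no robust estimation, a replicate block and left-out libraries.

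Labels number the replicates in both groups without stating a shared day. Deviations from group means over 10032 genes correlated at 0.546, 0.45 and 0.828 for same-numbered libraries, which met the rule for pairing from the data and not from the design. All counts and adjusted p-values come from the fit without the block unless the block is named. Blocked values stand beside the members whose call they change, and blocked counts are given for the partner lists. Controls 1 and 2 correlated best with the other's number (0.592 and 0.584). The members and gene lists were chosen with earlier results of these data known. Members past the test and the 5 most abundant per length were named with all values, and up to 3 genes per direction from each partner list; promoter letters were chosen after the files were seen.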

Additional observations from a re-analysis of the deposited data

How the results depend on the processing

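Of the 12 members that passed, all 12 did so in the same direction under filterByExpr, no filter, RLE factors, library totals, DESeq2, non-robust fits, the replicate block and with both replicate 3 libraries left out. With 1 library left out, 7 to 10 members fell and 1 to 3 rose, 4 to 8 partner genes fell and 1 to 3 rose, and 568 to 1739 of all genes passed. The replicate block gave 4978 genes, 23 fallen and 9 risen partner genes; leaving out both replicate 3 libraries gave 3716, 20 and 7. The block also called SEMA3C, SEMA3D, SEMA3F, PLXNA1, PLXNA3 and PLXNA4, and it changed no other member's call. For these counts the cause was not tested.

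Members near 0 changed sign without passing the test. With 1 library left out, log2 changes ranged from -0.046 to 0.047 for SEMA3A (above 0 without KO replicate 3), from -0.032 to 0.040 for SEMA4D (above 0 without control replicates 1 or 2 or KO replicates 1 or 2), from -0.176 to 0.090 for PLXNB1 (above 0 without control replicate 3 or KO replicate 2) and from -0.104 to 0.074 for PLXNB2 (above 0 without control replicates 1 or 2 or KO replicates 2 or 3). SEMA4D was 0.0066 with RLE factors or library totals and 0.0067 with DESeq2. Without both replicate 3 libraries SEMA3A was 0.019 and PLXNB1 0.0016. The cause was not tested. Depth limits the 6 untested members and SEMA3G, PLXNA4, SEMA6A, SEMA6C and SEMA4G, whose intervals are wide.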
